A study of Mus musculus with 36 samples.

Results

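The data were read for 10 liver genes: the xenobiotic receptors CAR (encoded by Nr1i3) and PXR (encoded by Nr1i2), and 8 genes that these receptors are known to induce or to act with, Cyp2b9, Cyp2b10, Cyp2b13, Cyp3a11, Por, Ces2a, Gadd45b and Abcc3. The members were taken by gene symbol from the deposited count tables. All 10 were found among the 24421 genes counted.

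The study asked whether Fc(mML1)B3, an antibody Fc fragment carrying a grafted macrocyclic peptide that activates the receptor Met, improves steatohepatitis in mice. Liver RNA was sequenced from 36 inbred male C57BL/6J mice, bought at 7 weeks of age, all of which had first eaten a choline-deficient, amino acid-defined high-fat diet (CDAHFD) for 12 weeks. In 1 experiment 20 mice were then moved to a choline-containing high-fat diet (HFD), and over 2 weeks received a weekly injection, 10 of them of Fc at 4.3 mg/kg and 10 of Fc(mML1)B3 at 5 mg/kg. In the other experiment 16 mice were moved to a standard diet and received the same doses on days 1, 4 and 7, 9 of them of Fc and 7 of Fc(mML1)B3, and livers were taken at 10 days. Fc without the graft was therefore the control in both, and every group carried the same dietary injury. Diet, injection schedule and duration changed together between the experiments and cannot be told apart, and livers of mice that were not dosed were not analysed here. Each library came from a separate mouse. Libraries held 14949035 to 28466853 counted reads (median 23558194.5).

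CAR and PXR are nuclear receptors that sense foreign chemicals, bile acids and other small lipids in hepatocytes. Each pairs with the retinoid X receptor, binds response elements near its targets and raises the genes of drug metabolism: oxidation by cytochrome P450 enzymes, hydrolysis and conjugation, and export from the cell. Cyp2b10 is the classic CAR target of mouse liver and Cyp3a11 the classic PXR target, and many genes answer to both receptors.

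Under the standard diet, the CAR gene and the electron donor gene Por were higher with Fc(mML1)B3. Por was 2.21-fold higher and Nr1i3 1.53-fold higher, and for both genes the 7 treated mice lay above all 9 Fc mice, as for 1.83% of all genes. Cyp3a11, Ces2a and Abcc3, in contrast, differed little between the proteins but were 1.58-fold to 3.43-fold higher under the standard diet than under the HFD, with no overlap between the groups given the same protein, as for 7.47% of all genes with Fc and 7.3% with Fc(mML1)B3. Under the HFD, none of the 9 tested members passed the test between Fc(mML1)B3 and Fc, where 14.8% of all genes did. The unit of level is CPM, which divides a gene's reads by the library's size after edgeR's TMM scaling (trimmed mean of M values). Differences were tested with the quasi-likelihood test of edgeR, with p-values adjusted after Benjamini and Hochberg over all genes tested, and a gene was called at an adjusted p below 0.05.

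**Figure D1:**
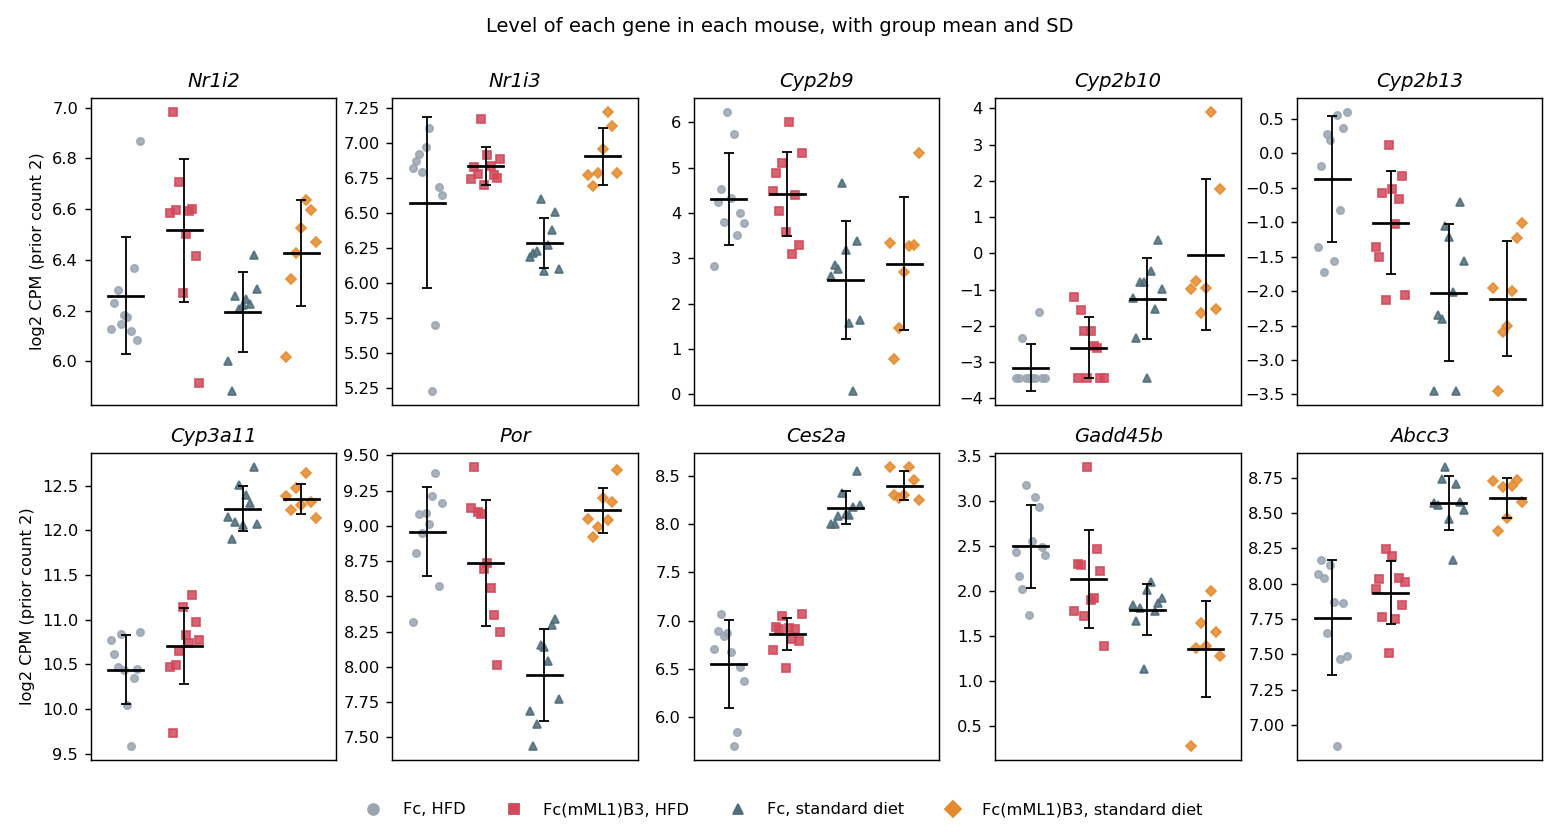
Level of each of the 10 genes in each mouse, on the log2 CPM scale with a prior count of 2, where each point is 1 mouse of the group named by colour and shape, horizontal lines are group means and error bars are SD. The 7 standard diet mice given Fc(mML1)B3 lie above all 9 given Fc for Por and Nr1i3, and within each protein the standard diet mice lie above the HFD mice for Cyp3a11, Ces2a and Abcc3, though for Abcc3 in the Fc mice only by 287.3 against 287.2 CPM.

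The promoter sequences show how alike some members are before their counts are read. The bases ahead of the start site come from RefSeq, build GRCm38.p6, the same coordinates as the mm10 gene models of the count tables; 9 of the 10 members matched, Abcc3 being the exception. Cyp2b9 and Cyp2b13 are shown first because their 300-base windows (250 bases before and 50 after the start) were 99.3% identical, and capitals mark the 2 bases that differ.
Cyp2b9 (chr7:26173159-26173408, + strand): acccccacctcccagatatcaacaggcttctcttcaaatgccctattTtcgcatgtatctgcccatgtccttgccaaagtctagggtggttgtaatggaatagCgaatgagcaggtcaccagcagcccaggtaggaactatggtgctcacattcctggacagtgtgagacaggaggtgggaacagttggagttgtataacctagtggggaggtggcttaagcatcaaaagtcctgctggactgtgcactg
Cyp2b13 (chr7:26061245-26061494, + strand): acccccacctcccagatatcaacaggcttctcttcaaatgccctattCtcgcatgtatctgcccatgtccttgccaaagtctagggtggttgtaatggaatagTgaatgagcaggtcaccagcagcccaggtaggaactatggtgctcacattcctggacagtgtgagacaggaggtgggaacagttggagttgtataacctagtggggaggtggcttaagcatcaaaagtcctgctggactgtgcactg
The differences were T48C and C104T, written as the Cyp2b9 base, the position counted from 1 at the 5′ end, and the Cyp2b13 base. Cyp2b10, the third member of the family here, was 71.7% identical to each of them when aligned with gaps, and its window held none of the motifs searched. Elements farther from its start were not searched.
Cyp2b10 (chr7:25897408-25897657, + strand): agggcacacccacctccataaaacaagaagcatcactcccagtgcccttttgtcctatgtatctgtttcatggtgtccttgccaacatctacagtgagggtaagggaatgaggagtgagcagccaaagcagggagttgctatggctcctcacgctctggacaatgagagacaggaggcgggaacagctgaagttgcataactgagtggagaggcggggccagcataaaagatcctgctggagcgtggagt
Both Cyp2b9 and Cyp2b13 held the nuclear receptor half-site AGGTCA, 138 bases before the start, which was found on either strand in 16.3% of 32851 mouse promoter windows of this length.

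Cyp3a11, Nr1i3 and Por are shown because the results below turn on them, with motif matches in capitals. In Cyp3a11 the matches were AGGTCA and the reverse strand of the related half-site AGTTCA, which 14% of all windows held.
Cyp3a11 (chr5:145879855-145880104, - strand): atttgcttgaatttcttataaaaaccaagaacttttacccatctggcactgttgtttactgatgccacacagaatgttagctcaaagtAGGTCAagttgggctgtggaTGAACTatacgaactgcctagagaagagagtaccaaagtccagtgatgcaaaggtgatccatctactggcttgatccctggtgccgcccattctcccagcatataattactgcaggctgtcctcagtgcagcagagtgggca
In Nr1i3 the match was the E-box CACGTG, letters to which clock factors, among others, bind, found in 7.15% of all windows.
Nr1i3 (chr1:171213720-171213969, + strand): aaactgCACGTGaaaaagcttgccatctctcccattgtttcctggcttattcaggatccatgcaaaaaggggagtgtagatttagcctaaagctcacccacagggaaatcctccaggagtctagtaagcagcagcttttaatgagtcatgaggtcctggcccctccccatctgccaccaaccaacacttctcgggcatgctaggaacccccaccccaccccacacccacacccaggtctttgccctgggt
The Por window had no match to the half-sites, the E-box, the D-box letters TTATGTAA or TTACGTAA (in 1.06% of all windows), or the composite elements DR4 and ER6 to which CAR and PXR bind.
Por (chr5:135688895-135689144, + strand): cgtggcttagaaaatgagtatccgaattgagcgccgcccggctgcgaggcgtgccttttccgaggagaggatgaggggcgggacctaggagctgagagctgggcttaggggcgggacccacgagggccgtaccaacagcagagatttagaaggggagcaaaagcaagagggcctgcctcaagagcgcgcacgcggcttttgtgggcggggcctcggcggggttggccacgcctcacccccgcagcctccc
Ces2a also held AGGTCA and Gadd45b an E-box, whereas Nr1i2 had no match. DR4, a direct repeat of AGTTCA or AGGTCA with 4 bases between, was found in 0.0274% of all windows and ER6, an everted repeat of AGTTCA with 6 bases between, in 0.00609%, and neither was in a member's window. A match describes these letters only. Everted repeats with AGGTCA, other spacings and bases outside the windows were not searched.

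Among the receptors, Nr1i3 (mm10, chr1:171213970-171218845, + strand, 9 exons) showed the clearer difference. Its lowest, median and highest levels under the standard diet were 67.7, 74.8 and 97 CPM in the Fc group and 103.3, 110.0 and 149.2 CPM with Fc(mML1)B3. All 7 treated mice were above all 9 Fc mice. The log2 difference was 0.62 (SE 0.09, adjusted p = 5.2e-05), and the exact permutation test over the 11440 groupings of these mice gave p = 0.00017 (two-sided), the smallest it can give. Against the 4 Fc mice whose running numbers in the deposited names share a series with all treated mice, the difference was 0.59 (adjusted p = 0.00423).

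Under the HFD the levels of Nr1i3 were 37.4, 111.8 and 137.5 CPM with Fc and 103.8, 111.7 and 144.2 CPM with Fc(mML1)B3. The medians were therefore almost equal, and the Fc range was stretched by mouse 7 (37.4 CPM) and mouse 8 (51.9 CPM), since the next lowest Fc mouse held 98.6 CPM. These were also the HFD mice with the most S100a8, a neutrophil gene (22.2 and 20.2 CPM, against at most 5.95 CPM in the other Fc mice), and the part of this in the result was not tested. The difference was 0.19 (SE 0.16, adjusted p = 0.467), and 0.00 without both mice, an omission chosen after their values were seen.

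The exons of Nr1i3 share 257 bases with Tomm40l, a gene of the mitochondrial outer membrane that runs on the opposite strand. Tomm40l rose by nearly the same amount under the standard diet, by 0.70 on the log2 scale (SE 0.09, adjusted p = 4e-05), and did not differ under the HFD (-0.01, adjusted p = 0.967). The libraries were directional, but whether the counting used strand is not given in the sources used here, so reads over the shared bases cannot be assigned with certainty.

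Nr1i2 (mm10, chr16:38248349-38294824, - strand, 9 exons) had levels of 58.9, 74.6 and 85.4 CPM with Fc and 64.7, 88.6 and 99.2 CPM with Fc(mML1)B3 under the standard diet. Of the treated mice, 5 were above every Fc mouse while mouse 1 (64.7 CPM) was among the low Fc mice. The difference of 0.24 (SE 0.08) gave an adjusted p of 0.0501, just short of the threshold, and 0.0327 by DESeq2. It passed without Fc mouse 8 (adjusted p = 0.0284) or treated mouse 1 or 2 (0.00579 and 0.0499), but the difference was 0.14 (adjusted p = 0.396) against Fc mice 6 to 9 alone, and the adjusted p was 0.228 in the fit over all 36 libraries. Under the HFD the levels were 67.8, 72.3 and 116.8 CPM with Fc and 60.3, 96.1 and 126.5 CPM with Fc(mML1)B3, and 9 of the 10 treated mice were above the Fc median. The difference of 0.28 (SE 0.11) had an adjusted p of 0.0923. In this experiment the running numbers place all Fc mice in 1 series, treated mice 1 to 4 in another and treated mice 5 to 10 in another again, so that series and protein cannot be told apart. Against all Fc mice the difference was 0.48 (adjusted p = 0.0345) for mice 1 to 4 and 0.13 (adjusted p = 0.515) for mice 5 to 10. Per kilobase of exon, mean levels of Nr1i3 were 55.4 to 85.3 CPM and of Nr1i2 29.1 to 36.8 CPM over the 4 groups, so the CAR transcript was the more abundant in each.

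Por (mm10, chr5:135689145-135735326, + strand, 16 exons) encodes P450 oxidoreductase, the flavoprotein that passes electrons from NADPH to the microsomal P450 enzymes, and it showed the largest protein effect of the well-counted members. The lowest, median and highest levels under the standard diet were 173.2, 263.5 and 324.2 CPM with Fc and 485.6, 529.9 and 675.6 CPM with Fc(mML1)B3. The groups were far apart, with the lowest treated mouse well above the highest Fc mouse. The mean was 251.0 ± 54.9 CPM (SD, n = 9) in the Fc mice and 555.9 ± 63.7 CPM (SD, n = 7) in the treated mice. This was a log2 difference of 1.14 (SE 0.12, adjusted p = 1.6e-06; exact permutation p = 0.00017, two-sided, the smallest possible). Over the alternatives tried it was 0.99 to 1.20, the lowest value coming from the comparison with Fc mice 6 to 9 alone (adjusted p = 0.00019).

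Under the HFD, Por gave 319.4, 529.9 and 665.5 CPM with Fc and 258.6, 420.2 and 684.3 CPM with Fc(mML1)B3. The groups overlapped widely and the difference was -0.18 (SE 0.16, adjusted p = 0.476). The treated mice split by numbering series: mice 1 to 4 held 543.8 to 684.3 CPM and mice 5 to 10 held 258.6 to 427.0 CPM. Against all Fc mice the difference was 0.23 (adjusted p = 0.345) for the former and -0.52 (adjusted p = 0.0254) for the latter.

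The difference in Por between Fc(mML1)B3 and Fc mice was therefore not the same in the experiments. Numbering series and protein cannot be told apart under the HFD, so the part of series in this was not tested. The interaction, the effect under the standard diet minus that under the HFD, was 1.34 on the log2 scale (SE 0.21, adjusted p = 3.2e-05). Por was the only member of 10 whose interaction was called, where 9.06% of 14105 genes were, 4.66% with a positive value. The level that stood apart was that of the standard diet Fc mice, whose mean per kilobase was 99.3 CPM against 175.9 to 220.0 CPM in the other 3 groups. For Nr1i3 the interaction was 0.45 (SE 0.21, adjusted p = 0.196). Without Fc mice 7 and 8 of the HFD experiment it was 0.62 (adjusted p = 0.00035), and without mouse 7 alone it was 0.54 (adjusted p = 0.0198). Mice 7 and 8 were picked out after their low Nr1i3 was seen. Leaving them out therefore gives no independent test of this interaction.

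Clock genes also differed between these groups. Dbp, a clock output factor, had means of 100.2 CPM with Fc and 9.87 CPM with Fc(mML1)B3 under the HFD, and 68.7 and 75.9 CPM under the standard diet. Arntl, which encodes the core factor BMAL1, was 1.2 and 18.6 CPM under the HFD and 3.96 and 1.91 CPM under the standard diet, and Nr1d1, which encodes REV-ERB alpha, was 83.3 and 10.4 CPM and then 129.5 and 40.4 CPM. Of 18 clock and clock output genes tested under the HFD, 6 were higher and 8 lower, where 14.8% of all genes were called, led by Arntl (3.98, adjusted p = 1.1e-08), Nfil3 (1.87, adjusted p = 3.8e-08) and Cry1 (2.22, adjusted p = 3.4e-07). Of 19 tested under the standard diet, 9 were higher and 5 lower, where 16.1% of all genes were called, among them Nr1d1 (-1.68, adjusted p = 3.6e-07) and Per2 (1.18, adjusted p = 3.7e-06). The hour of tissue collection is not given in the sources used here, and the part of the clock in the differences of Por and Nr1i3 was not tested.

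**Figure D2:**
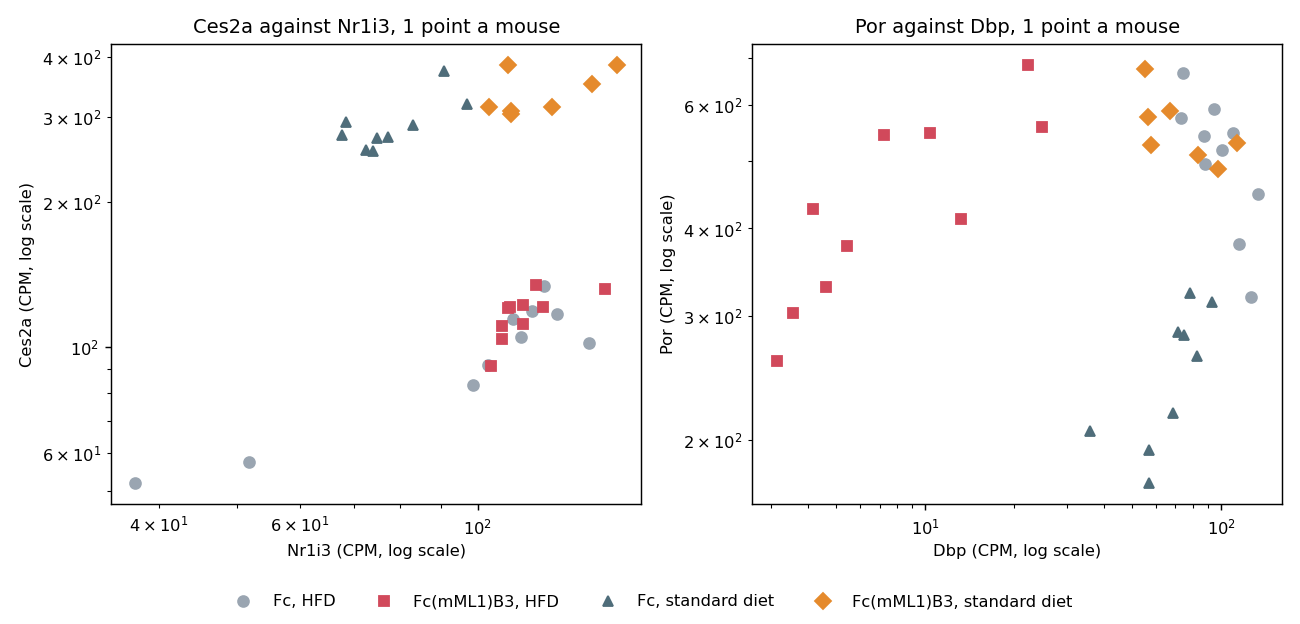
Ces2a against Nr1i3 (left) and Por against Dbp (right), in CPM on log scales, with 1 point a mouse and colour and shape for the group. On the left, Fc mice 7 and 8 of the HFD lie at the low end of both genes, and on the right Por spans 258.6 to 684.3 CPM in the HFD mice given Fc(mML1)B3, in which Dbp is low, and 173.2 to 324.2 CPM in the standard diet Fc mice.

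Within groups the relation of Por to Dbp changed direction, with r of -0.77 in the HFD Fc mice, 0.83 in the HFD Fc(mML1)B3 mice, 0.72 in the standard diet Fc mice and -0.67 in the standard diet Fc(mML1)B3 mice. Over the 36 mice with group means removed, r was 0.49 and rho 0.34, neither past the threshold in a permutation test adjusted over 10 relations (adjusted p = 0.164 and 0.675). These relations were chosen after the data were seen. The genes whose pattern over the 36 mice was most like that of Por, with group means removed, were Coq10b (Spearman's rho 0.81), Usp2 (0.80) and Gins4 (0.75). Usp2, a clock-controlled deubiquitinase gene, rose under the standard diet by 1.49 (SE 0.26, adjusted p = 0.00053).

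The Cyp2b enzymes came next in the pathway, and they were low in these male livers. Cyp2b10 (mm10, chr7:25897658-25926624, + strand, 9 exons) was near the limit of counting. Under the HFD it had 6 reads in all over the 10 Fc libraries and 22 over the 10 Fc(mML1)B3 libraries, and was below the filter of the separate fit there. In the fit over all 36 libraries its difference was 1.69 (adjusted p = 0.364). In the standard diet experiment the 9 Fc mice had 0 to 30 reads and the treated mice 10, 14, 6, 10, 376, 6 and 82 reads. Mouse 5 and mouse 7 thus stood above all Fc mice and the other 5 treated mice lay among them. The medians were 0.41 CPM with Fc and 0.419 CPM with Fc(mML1)B3.

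The fitted difference of Cyp2b10 was 2.67 (SE 0.82) with an adjusted p of 0.0312, so it counted as called, but the call rested on few mice. Without treated mouse 5 the difference was 0.92 (adjusted p = 0.351), and the call was also lost without Fc mouse 1, 2 or 9. It was lost by limma-voom (1.25, adjusted p = 0.355) and against Fc mice 6 to 9 (2.18, adjusted p = 0.277), and the exact permutation test on log2 CPM gave p = 0.173. When read pairs were counted in place of reads, the gene was below the filter and was not tested.

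Cyp2b9 (mm10, chr7:26173409-26210660, + strand, 9 exons), a P450 gene usually more active in female liver, varied widely within every group. Under the HFD it was 7.02, 17.4 and 75.4 CPM with Fc and 8.47, 21.7 and 64 CPM with Fc(mML1)B3, and under the standard diet 0.959, 6.73 and 25.1 CPM and then 1.63, 9.54 and 40.1 CPM. The protein differences were 0.03 (SE 0.40, adjusted p = 0.972) and 0.54 (SE 0.56, adjusted p = 0.561). Cyp2b13 (mm10, chr7:26061495-26096196, + strand, 9 exons), its near copy, was at or below 1.43 CPM in every mouse. Under the HFD its medians were 0.918 CPM with Fc and 0.468 CPM with Fc(mML1)B3, and 9 of 10 treated mice lay below the Fc median, with a difference of -0.80 (SE 0.37, adjusted p = 0.154). With the standard diet it had 42 reads over the Fc libraries and 30 over the Fc(mML1)B3 libraries and was below the filter of the separate fit. In the fit over all 36 libraries its difference there was -0.26 (adjusted p = 0.861).

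Because the Cyp2b genes resemble each other, the transcripts were compared. Of all 100-base windows in the GENCODE M21 transcript, 9.29% of Cyp2b13 and 1.18% of Cyp2b9 also occurred unchanged in a transcript of another gene, and none of Cyp2b10. Ces2a shared 8.13% of its windows with Gm7208, and Cyp3a11 0.141% with Cyp3a44 and Cyp3a16. Reads from such stretches can be lost or misplaced, so the level of Cyp2b13 is the least certain of these.

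Cyp3a11 (mm10, chr5:145854607-145879854, - strand, 13 exons) encodes the main drug-oxidising CYP3A enzyme of mouse liver, and it was the most abundant member per kilobase, with group means of 698.8 to 2565.0 CPM. Under the HFD its levels were 768.0, 1410.1 and 1863.7 CPM with Fc and 851.4, 1728.7 and 2482.5 CPM with Fc(mML1)B3. Above the Fc median lay 9 of 10 treated mice, but the difference was 0.28 (SE 0.16, adjusted p = 0.243). Levels under the standard diet were 3828.4, 4534.6 and 6707.5 CPM with Fc and 4522.6, 5095.2 and 6411.6 CPM with Fc(mML1)B3, a difference of 0.09 (SE 0.10, adjusted p = 0.582). The treated range thus fell within that of the Fc mice.

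Ces2a (mm10, chr8:104734003-104741634, + strand, 12 exons) encodes a liver carboxylesterase that cleaves ester drugs and lipids. Its levels under the HFD were 51.9, 103.2 and 133.8 CPM with Fc and 91.2, 120.7 and 134.2 CPM with Fc(mML1)B3, and Fc mice 7 and 8 were again the lowest (51.9 and 57.6 CPM). The difference was 0.27 (SE 0.14, adjusted p = 0.186), and 0.12 without both mice. With the standard diet Ces2a was 255.6, 275.6 and 375.5 CPM with Fc and 304.6, 315.9 and 385.9 CPM with Fc(mML1)B3. All 7 treated mice were above the Fc median, with a difference of 0.22 (SE 0.08) and an adjusted p of 0.0573 (0.0365 by DESeq2). It passed without Fc mouse 4 or 8 (adjusted p = 0.0479 and 0.00674) or treated mouse 7 (0.0498), but the difference was 0.13 (adjusted p = 0.431) against Fc mice 6 to 9 alone, and the adjusted p was 0.364 in the fit over all 36 libraries.

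Abcc3 (mm10, chr11:94343295-94392976, - strand, 31 exons) encodes MRP3, which exports conjugated drugs and bile acids from the hepatocyte to the blood. Under the HFD it was 115.2, 232.8 and 287.2 CPM with Fc and 182.1, 253.4 and 302.9 CPM with Fc(mML1)B3 (difference 0.16, SE 0.13, adjusted p = 0.444). With the standard diet it was 287.3, 379.8 and 453.8 CPM with Fc and 332.0, 411.9 and 424.4 CPM with Fc(mML1)B3 (difference 0.03, SE 0.08, adjusted p = 0.844). The treated range again lay inside the Fc range.

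Gadd45b (mm10, chr10:80930091-80932204, + strand, 4 exons) encodes a small stress-induced protein known as a partner of CAR in the induction of its targets. It was 3.22, 5.39 and 8.9 CPM with Fc and 2.52, 4.13 and 10.3 CPM with Fc(mML1)B3 under the HFD (difference -0.30, SE 0.22, adjusted p = 0.355). With the standard diet it was 2.09, 3.5 and 4.19 CPM with Fc and 1.12, 2.51 and 3.89 CPM with Fc(mML1)B3 (difference -0.40, SE 0.18, adjusted p = 0.148). Below the Fc median lay 8 of 10 treated mice under the HFD and 6 of 7 under the standard diet.

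**Figure D3:**
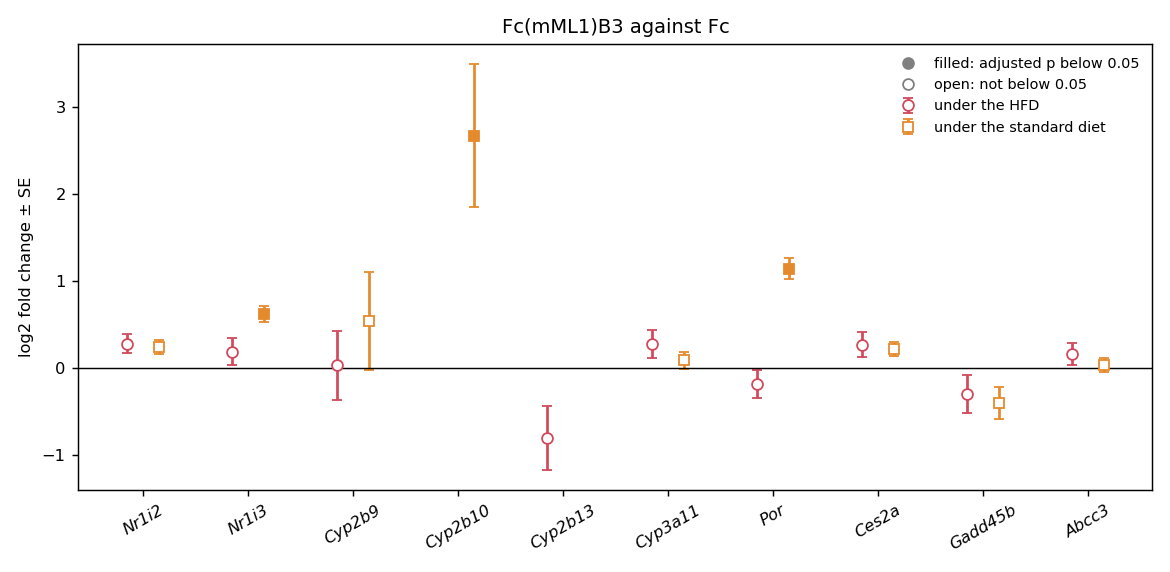
Log2 fold change of Fc(mML1)B3 against Fc with its standard error, for each gene tested under the HFD (circles) and under the standard diet (squares). Filled symbols have an adjusted p below 0.05, which holds for Nr1i3, Cyp2b10 and Por under the standard diet.

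Counted over the members, 3 of the 9 tested under the standard diet were higher with Fc(mML1)B3 and none was lower, where 16.1% of 13570 genes were called and 8.56% were higher. The median over the members was 0.24 against -0.01 over all genes. Only Nr1i3 and Por had groups without overlap, which 2.93% of genes had, 1.83% with the treated mice higher. With a fold above 1.5 required as well, 1 of 2 settings stated for this experiment, the same 3 members were called, where 2.36% of genes were. The other setting, an adjusted p below 0.1 and a fold above 2, would leave out Nr1i3, which was 1.53-fold higher. Under the HFD none of the 9 tested was called by edgeR, DESeq2 or limma-voom, where edgeR called 14.8% of 13299 genes, nor when a fold above 2 and an adjusted p below 0.1 were asked for, the setting stated for that experiment, which 1.34% of genes passed. The members with an unadjusted p below 0.05 were Nr1i2 and Cyp2b13, 2 in all, and the median over the members was 0.16 against -0.01. No member's groups were without overlap, which 0.917% of genes had. The count rose to 1 without Fc mouse 10 or treated mouse 10 (Nr1i2, adjusted p = 0.0127 and 0.0313) and without treated mouse 5 (Gadd45b, adjusted p = 0.0468).

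More members were called between the experiments than between the proteins, and the same held for all genes. In the Fc mice, 4 of the 10 members were higher and 5 lower under the standard diet than under the HFD, where 47.9% of 14105 genes were called, 23.3% higher and 24.6% lower. In the Fc(mML1)B3 mice 4 of 10 were higher and 2 lower, where 38.5% of genes were called, 20.7% higher and 17.9% lower. Higher under the standard diet in both were Cyp3a11, Ces2a, Abcc3 and Cyp2b10, and lower in both were Cyp2b13 and Gadd45b. Of these, Cyp2b10 was below the filter of the HFD fit and Cyp2b13 below that of the standard diet fit. Each passed the filter of the joint fit only through the diet where it was higher. The direction of their calls was thus favoured in advance, and the counts include them.

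**Figure D4:**
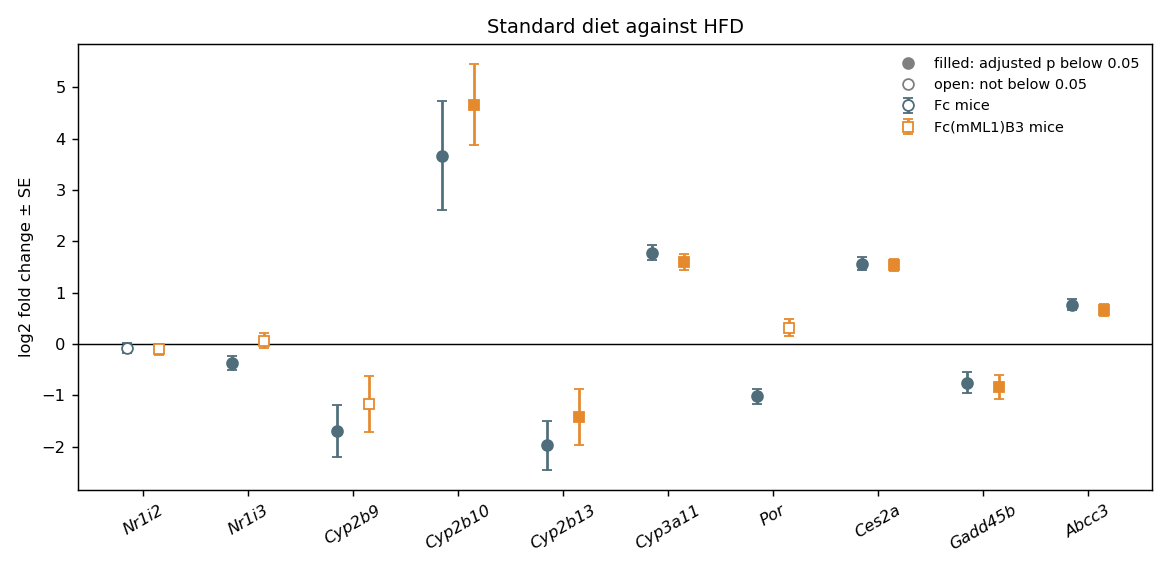
Log2 fold change of the standard diet against the HFD with its standard error, in the Fc mice (circles) and in the Fc(mML1)B3 mice (squares), with filled symbols for an adjusted p below 0.05. Cyp3a11, Ces2a and Abcc3 lie above 0 and Gadd45b and Cyp2b13 below 0 in both, whereas Por is below 0 in the Fc mice alone.

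Cyp3a11 was 3.43-fold higher under the standard diet in the Fc mice (log2 1.78, SE 0.15, adjusted p = 4.7e-12) and 3.04-fold higher in the Fc(mML1)B3 mice (1.60, SE 0.15, adjusted p = 2.9e-10). Ces2a was 2.98-fold and 2.9-fold higher (1.57, SE 0.12, adjusted p = 5.8e-13, and 1.54, SE 0.12, adjusted p = 6.2e-12). Abcc3 was 1.71-fold and 1.58-fold higher (0.77, SE 0.11, adjusted p = 9.6e-07, and 0.66, SE 0.12, adjusted p = 4.4e-05). For these 3 genes every standard diet mouse was above every HFD mouse given the same protein, although across proteins the HFD Fc(mML1)B3 mice reached 302.9 CPM of Abcc3 and the standard diet Fc mice began at 287.3 CPM. Within a protein, 7.47% of genes with Fc and 7.3% with Fc(mML1)B3 were higher without overlap. Groups without overlap in either direction were seen for 9.42% and 9.9% of genes.

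Cyp2b10 rose from 6 reads over 10 libraries to 92 reads over 9 libraries in the Fc mice (3.67, SE 1.06, adjusted p = 0.00442) and from 22 over 10 to 504 over 7 in the Fc(mML1)B3 mice (4.66, SE 0.79, adjusted p = 1.2e-05). At so few reads the size of the fold is uncertain. Cyp2b10 passed the filter only through standard diet libraries, and Cyp2b13 only through HFD libraries. Cyp2b13 was lower under the standard diet (-1.97, SE 0.48, adjusted p = 0.00099, and -1.42, SE 0.55, adjusted p = 0.0387), and so was Gadd45b (-0.75, SE 0.21, adjusted p = 0.00312, and -0.84, SE 0.23, adjusted p = 0.00374). The Cyp2b13 call in the Fc(mML1)B3 mice was lost when any 1 of 10 mice was left out (adjusted p = 0.0506 to 0.0866). When read pairs were counted, Cyp2b10 and Cyp2b13 were below the filter and were not tested.

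Cyp2b9 was lower under the standard diet in the Fc mice (-1.69, SE 0.51, adjusted p = 0.00618), with -1.17 (SE 0.54, adjusted p = 0.0818) in the Fc(mML1)B3 mice and -1.96 (adjusted p = 0.00452) there without standard diet mouse 7. Por was lower in the Fc mice (-1.02, SE 0.15, adjusted p = 6.8e-07), where 8 of 9 standard diet mice lay below all HFD mice, and had a difference of 0.32 (SE 0.16, adjusted p = 0.0965) in the Fc(mML1)B3 mice, or 0.40 (adjusted p = 0.0324) without HFD mouse 2. Nr1i3 was lower in the Fc mice (-0.37, SE 0.14, adjusted p = 0.0275). The difference was -0.55 (adjusted p = 1.6e-06) without mice 7 and 8, which were picked out after their low Nr1i3 was seen. Leaving out 1 of 6 other mice ended this call (adjusted p = 0.0512 to 0.0637). The difference was 0.07 (SE 0.15, adjusted p = 0.733) in the Fc(mML1)B3 mice. Nr1i2 differed by -0.08 (SE 0.10, adjusted p = 0.555) and -0.10 (SE 0.11, adjusted p = 0.476). In bulk liver, fewer cells of a type and less RNA per cell cannot be told apart for any of these genes.

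Across mice, the CAR transcript varied together with some of the other members. Over the 36 mice with group means removed, Nr1i3 and Ces2a had r = 0.87 and rho = 0.74 (permutation, adjusted p = 8.5e-05 and 0.00025 over 17 relations), and r was 0.71 without Fc mice 7 and 8 of the HFD, the farthest from the median. Within the groups r was 0.93, 0.69, 0.71 and 0.55, in the order HFD Fc, HFD Fc(mML1)B3, standard diet Fc and standard diet Fc(mML1)B3. Nr1i3 and Abcc3 had r = 0.77 and rho = 0.66 (adjusted p = 8.5e-05 and 0.00025), with 0.59 without these mice and 0.87, 0.72, 0.46 and 0.44 within the groups in the same order. The PXR transcript related only to Por in this family of 17 (r = 0.57, rho = 0.55, adjusted p = 0.00544 and 0.0047), with 0.55 without the 2 mice farthest from the median and 0.43, 0.69, 0.68 and 0.31 within the groups. The values 0.69 and 0.68 came from the groups that mix numbering series, which the permutation did not hold apart. The part of series in these relations was not tested. Neither receptor related to Cyp3a11 past the threshold (r = 0.42 for Nr1i3, adjusted p = 0.124, and -0.03 for Nr1i2, adjusted p = 0.977), nor to each other (r = 0.11, adjusted p = 0.784). Within the groups, in the same order, r with Cyp3a11 was 0.59, -0.17, 0.83 and 0.57 for Nr1i3. For Nr1i2 it was 0.38, -0.57, 0.66 and 0.17.

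The genes most like each member across the 36 mice were found by rank correlation with group means removed. They were Cyp1a2 (rho 0.82), Tomm40l (0.81) and Pon1 (0.80) for Nr1i3, and Tmc7 (0.71), BC023829 (0.71) and Mfsd2a (0.70) for Nr1i2. For Cyp3a11 they were Cyp2c38 (0.76), Reck (0.73) and Tmem47 (0.72), for Ces2a Rdh7 (0.80), Acsm5 (0.78) and Ces1c (0.76), and for Abcc3 Stab2 (0.74), Cyp4f13 (0.74) and Tmbim6 (0.72). Gadd45b was most like Gltp (0.87), Osmr (0.85), the oncostatin M receptor gene, and Vim (0.83), the vimentin gene. For Cyp2b9 they were BC089597 (0.79), Agt (0.78) and Hadh (0.74), and for the sparsely counted Cyp2b10 and Cyp2b13 no gene exceeded 0.60 and 0.61. All rho are ranks over the same libraries and are given as a description.

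Other genes known to be induced through CAR or PXR were read beside the members, from a list of 30 of which 27 were tested in each experiment. With the standard diet 11 of the 27 rose with Fc(mML1)B3 and none fell, with a median difference of 0.22 against -0.01 over all genes, and 8.56% of all genes were called higher. Fmo5, a flavin monooxygenase gene, rose by 0.59 (SE 0.09, adjusted p = 0.00019), Papss2, which makes the sulfate donor, by 0.39 (SE 0.08, adjusted p = 0.00189), and Sult1d1, a sulfotransferase gene, by 0.34 (SE 0.07, adjusted p = 0.00198). The others that rose were Cyp2a5, Ugt1a1, Alas1, Slco1a4, Ugt2b34, Abcb1a, Ces2c and Cyp1a2. Against Fc mice 6 to 9 alone, 5 of 28 rose, with a median of 0.16. The share of all genes called in that smaller fit is not given here.

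Under the HFD 3 of the 27 rose (Fmo5, by 0.79, SE 0.13, adjusted p = 0.00018; Ugt2b34, a glucuronosyltransferase gene, by 0.38, SE 0.09, adjusted p = 0.00734; and Sult1d1), where 8.14% of all genes did. Abcb1a, an efflux pump gene, fell by 0.66 (SE 0.19, adjusted p = 0.0192), and the median difference was 0.00. Without Fc mice 7 and 8, none fell. The interaction was positive for 5 of 28, Cyp2a5 (1.30, SE 0.26, adjusted p = 0.00082), Abcb1a (1.17, SE 0.26, adjusted p = 0.00213), Slco1a4 (0.64, SE 0.17, adjusted p = 0.0129), Alas1 and Papss2, where 4.66% of genes had a positive call. Between the diets, 12 of 28 were higher and 5 lower under the standard diet in the Fc mice (23.3% and 24.6% of all genes), and 13 higher and 1 lower in the Fc(mML1)B3 mice (20.7% and 17.9% of all genes), led in both by Abcc2 (1.25 and 1.27), Ugt2b35 (0.55 and 0.75) and Cyp2c55 (1.83 and 2.74).

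**Figure D5:**
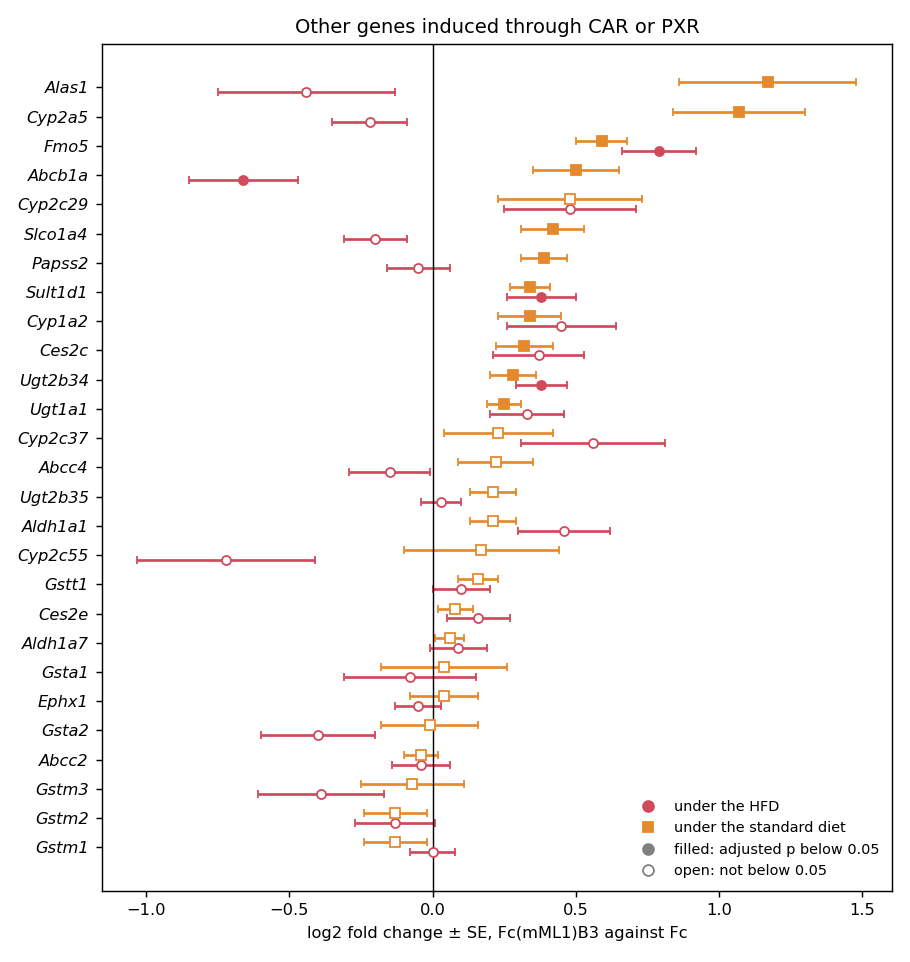
Log2 fold change of Fc(mML1)B3 against Fc, with its standard error, for other genes known to be induced through CAR or PXR, under the HFD (circles) and under the standard diet (squares), with filled symbols for an adjusted p below 0.05. With the standard diet 11 of 27 are filled, all to the right of 0, and with the HFD 3 are filled to the right and Abcb1a to the left.

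The other Cyp2a, Cyp2b, Cyp2c and Cyp3a genes were read as a family. Of 21 tested under the standard diet, 2 were higher, where 8.56% of all genes were, Cyp2a5 (1.07, SE 0.23, adjusted p = 0.00328) and Cyp2a12 (0.24, SE 0.06, adjusted p = 0.0131), while Cyp2a4 had 0.76 (adjusted p = 0.0742). Against Fc mice 6 to 9, 1 of 21 was higher, with a list median of 0.25 against 0.19 with all Fc mice. Of 18 tested under the HFD, Cyp2c70 was higher (0.91, SE 0.13, adjusted p = 3.5e-05) and Cyp2a4 lower (-2.07, SE 0.54, adjusted p = 0.012), where 14.8% of all genes were called, and Cyp2c54 had 0.82 (adjusted p = 0.0627). None of the 18 was lower without Fc mice 7 and 8, with the replicate block, or with treated mice 1 to 4 or 5 to 10 alone. Between the diets 8 of 21 were higher and 4 lower in the Fc mice (23.3% and 24.6% of all genes), and 10 higher and 1 lower in the Fc(mML1)B3 mice (20.7% and 17.9% of all genes), led by Cyp3a59 (1.72 and 2.20), Cyp3a25 (1.16 and 1.25), and Cyp2c70 (1.39) in the former and Cyp2c55 (2.74) in the latter. Median differences over the list were 0.31 and 0.46, against -0.05 and -0.02 over all genes. Cyp2a4 and Cyp2a5 are near-identical copies, so reads may have been split between them.

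Among the electron donors and haem genes that serve the P450 enzymes with Por, Alas1, the rate-limiting enzyme of haem synthesis, rose under the standard diet by 1.17 (SE 0.31, adjusted p = 0.0144). Its levels were 125.0, 295.7 and 723.7 CPM with Fc and 553.1, 661.4 and 1215.9 CPM with Fc(mML1)B3. Cyb5a, the cytochrome b5 gene, rose by 0.17 (SE 0.05, adjusted p = 0.0257), so 2 of 8 rose, where 8.56% of all genes did, and Blvrb had 0.24 (adjusted p = 0.063). Neither call was kept against Fc mice 6 to 9, where 0 of 8 were called. Under the HFD Cyb5a rose by 0.32 (SE 0.10, adjusted p = 0.0423), the only 1 of the 8 to do so (none without Fc mice 7 and 8), where 8.14% of all genes rose, with 0.23 for Pgrmc1 (adjusted p = 0.103) and Blvrb (adjusted p = 0.131). Between the diets 3 were higher and 2 lower under the standard diet with either protein, where 23.3% and 24.6% of all genes were with Fc and 20.7% and 17.9% with Fc(mML1)B3, led by Fech (0.33 and 0.36), the ferrochelatase gene.

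Of 14 partners and co-regulators of the receptors, 10 were higher under the standard diet in the Fc mice, where 23.3% of all genes were, and 8 higher and 1 lower in the Fc(mML1)B3 mice, where 20.7% and 17.9% of all genes were, with Ncoa2, a coactivator gene, first in both (0.70, SE 0.07, adjusted p = 2.6e-10, and 0.53, SE 0.07, adjusted p = 4.8e-07). Next were Ncor1 (0.35, adjusted p = 1.4e-07) and Hnf4a (0.61, adjusted p = 2e-06) in the Fc mice, and Rxra, the gene of the shared partner, (0.52, adjusted p = 1.2e-05) in the Fc(mML1)B3 mice. Median differences were 0.32 and 0.22. With Fc(mML1)B3 under the HFD, Hnf4a (0.37, adjusted p = 0.0208) and Egfr (0.62, adjusted p = 0.0413), whose signalling is known to hold CAR inactive, rose, 2 of 14 where 8.14% of all genes did. The count was 1 without Fc mice 7 and 8, 2 with treated mice 1 to 4 alone, and 0 with the replicate block or with treated mice 5 to 10 alone. In the standard diet experiment Ncoa2 (-0.25, adjusted p = 0.00405) and Ncor1 (-0.15, adjusted p = 0.0296) fell, where 16.1% of all genes were called, and 1 of 14 fell against Fc mice 6 to 9 or with the replicate block.

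Close relatives of Ces2a, Abcc3 and Gadd45b were read beside them. Gadd45a, a p53-induced relative of Gadd45b, fell by 0.90 with Fc(mML1)B3 under the HFD (SE 0.15, adjusted p = 0.00022) and had 0.24 under the standard diet (adjusted p = 0.269), with an interaction of 1.15 (SE 0.21, adjusted p = 0.00023). Ces2g rose under the HFD (0.33, adjusted p = 0.0284), where Ces2c had 0.37 (adjusted p = 0.116), and Ces2c rose under the standard diet (0.32, adjusted p = 0.0349), where Ces2b had 0.73 (adjusted p = 0.18). With Gadd45a, 2 of 9 were called under the HFD and 1 of 10 under the standard diet, where 14.8% and 16.1% of all genes were. No relative rose under the HFD without Fc mice 7 and 8 or under the standard diet against Fc mice 6 to 9. Of 10 relatives, 6 were higher and 1 lower under the standard diet than under the HFD in the Fc mice (23.3% and 24.6% of all genes), and 7 and 1 in the Fc(mML1)B3 mice (20.7% and 17.9% of all genes), led by the transporter genes Abcc2, Abcc6 (0.53 and 0.39) and, in the latter, Abcc4 (0.84), and by Gadd45a in the Fc mice, where it was lower (-0.71), while it was higher in the Fc(mML1)B3 mice (0.44).

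Since Cyp2b9 and Cyp2b13 belong to the genes more active in female liver, lists of sex-biased genes were read beside them; all mice were male. Of 7 female-biased genes tested under the HFD, 3 fell with Fc(mML1)B3, Acot3 (-1.26, adjusted p = 0.00069), Cyp2a4 and Ntrk2 (-0.76, adjusted p = 0.0172), where 14.8% of all genes were called, and 2 fell without Fc mice 7 and 8. Of 9 tested under the standard diet, 2 rose, Acot3 (2.28, adjusted p = 3.6e-05) and Cyp17a1 (0.66, adjusted p = 0.0475), where 8.56% of all genes did, and 1 rose against Fc mice 6 to 9. Of 13 male-biased genes, 3 rose under the HFD, Elovl3 (3.76, adjusted p = 8.2e-06), Selenbp2 (1.38, adjusted p = 0.0025) and Cyp7b1 (0.92, adjusted p = 0.00426), where 8.14% of all genes did. Under the standard diet Cyp2d9 rose (0.33, adjusted p = 0.0141) and Elovl3 fell (-1.51, adjusted p = 1e-05), where 16.1% of all genes were called, with 0.42 for Cyp7b1 (adjusted p = 0.109). Against Fc mice 6 to 9, none of the 13 rose and 1 fell.

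The lists were also counted between the diets, where 23.3% of all genes were higher and 24.6% lower in the Fc mice. Of 11 female-biased genes 6 were lower under the standard diet, among them Acot3 (-2.99, adjusted p = 2.5e-10) and Cyp17a1 (-2.16, adjusted p = 0.00022), and 3 were lower without mice 7 and 8. Of 13 male-biased genes 10 were higher, led by Elovl3 (2.55, adjusted p = 4.2e-07), Cyp4a12a (1.43, adjusted p = 2e-05) and Hsd3b5 (2.48, adjusted p = 4.6e-05). In the Fc(mML1)B3 mice 2 female-biased genes were higher, Cyp2a4 (1.57, adjusted p = 0.011) and Cyp3a16 (0.96, adjusted p = 0.0225), with 0.50 for Ntrk2 (adjusted p = 0.0934), and 4 male-biased genes were higher and 1 lower, where 20.7% and 17.9% of all genes were. Medians were -0.73 and 1.02 in the Fc mice and 0.24 and 0.31 in the Fc(mML1)B3 mice, for the female-biased and the male-biased list.

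CAR and many of its targets are most active in pericentral hepatocytes. Of 11 pericentral genes tested under the standard diet, 5 rose with Fc(mML1)B3 and 1 fell, where 16.1% of all genes were called and 8.56% were higher, led by the ammonium transporter gene Rhbg (0.44, adjusted p = 0.00092), Cyp2e1 (0.25, adjusted p = 0.0176) and Gulo (0.19, adjusted p = 0.03), and 1 rose against Fc mice 6 to 9. Of 9 periportal genes tested there, 4 rose and 2 fell, among them Cdh1 (-0.36, adjusted p = 0.00114) and Hal (-0.47, adjusted p = 0.00182), which fell, and 3 rose and 1 fell against Fc mice 6 to 9. Under the HFD Rhbg rose (0.44, adjusted p = 0.0411), 1 of 11 where 8.14% of all genes did, and none of the 11 did with treated mice 1 to 4 or 5 to 10 alone. Cyp1a2 had 0.45 (adjusted p = 0.117) and Gulo 0.25 (adjusted p = 0.147). With all mice, no periportal gene was called there by edgeR, DESeq2 or limma-voom or had an unadjusted p below 0.05 (Cyp2f2 0.27, Aldh1b1 -0.37). With treated mice 5 to 10 alone, 1 of the 9 periportal genes was lower. Between the diets, 1 pericentral gene was higher and 4 were lower under the standard diet in the Fc mice (median -0.29; 23.3% and 24.6% of all genes), and 0 and 3 in the Fc(mML1)B3 mice (median -0.27; 20.7% and 17.9% of all genes), opposite in direction to Cyp3a11, Ces2a and Abcc3. Of the periportal genes 3 were higher in the Fc mice (median 0.11) and 4 in the Fc(mML1)B3 mice (median 0.55), and 0 were lower. Of 12 acute phase genes, which rise when inflammation lowers P450 expression, 7 were lower under the standard diet in the Fc mice and 6 in the Fc(mML1)B3 mice, where 24.6% and 17.9% of all genes were lower. In the Fc mice 1 was higher, Fgb. The lower ones were led by Saa2 (-3.33 and -3.13) and Saa1 (-2.93 and -3.10), with Lcn2 (-2.04) in the former and Orm2 (-1.60) in the latter. Between the proteins 1 of 12 fell in each experiment, Il1rn under the HFD (-0.73, adjusted p = 0.0124) and Fgb under the standard diet (-0.43, adjusted p = 0.02), where 14.8% and 16.1% of all genes were called. Against Fc mice 6 to 9, 1 of the 12 was higher and 0 lower under the standard diet, and the median over the list was 0.20 in place of -0.26.

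Hepatocyte markers were abundant in every library. The 8 hepatocyte markers summed to 71849.3 to 147564.0 CPM over all mice, and their group medians were 102020.3 CPM and 118996.5 CPM under the HFD and 122610.7 CPM and 122716.0 CPM under the standard diet, Fc first. With Fc(mML1)B3, 1 of 8 rose under the HFD (Hnf4a) and 2 under the standard diet (Cps1, 0.19, adjusted p = 0.0313, and Serpina1c, 0.17, adjusted p = 0.0415), where 8.14% and 8.56% of all genes did. None of the 8 was called against Fc mice 6 to 9 or, in either experiment, with the replicate block. The list median changed little. Under the standard diet it was 0.10, then 0.10 against Fc mice 6 to 9 and 0.12 with the block. Under the HFD it was 0.25, and 0.26 with the block. Summed levels over all mice were 220.6 to 718.6 CPM for 6 macrophage markers, 169.0 to 416.2 CPM for 6 stellate cell markers, 153.0 to 253.6 CPM for 5 endothelial markers, 166.1 to 853.9 CPM for 5 cholangiocyte markers, 4.12 to 57.6 CPM for 4 neutrophil markers, 4.77 to 16.6 CPM for 5 lymphocyte markers and 55.7 to 165.4 CPM for 3 enterocyte markers. No marker counted was at 0 reads in all groups, and Alpi, an enterocyte marker, was at 0 reads in 2 of the 4.

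Between the proteins few of these markers were called. In the standard diet experiment Pdgfrb (-0.51, adjusted p = 0.0073) and Des (-0.36, adjusted p = 0.0239) of the stellate cell list and Sox9 (-0.50, adjusted p = 0.0402) of the cholangiocyte list fell, where 16.1% of all genes were called. Against Fc mice 6 to 9 the calls were 1 and 0, with list medians of -0.38 and -0.38. With all Fc mice the medians were -0.32 and -0.25. Under the HFD the neutrophil genes S100a8 (-1.46, adjusted p = 0.0166) and S100a9 (-1.27, adjusted p = 0.0423) and the B cell gene Ms4a1 (-0.68, adjusted p = 0.0429) fell, where 14.8% of all genes were called, and neither neutrophil gene was called without Fc mice 7 and 8. With all mice, no macrophage, endothelial or enterocyte marker was called by edgeR in either experiment. At an unadjusted p below 0.05 these were 3, 1 and 0 under the HFD and 1, 0 and 0 under the standard diet. Without Fc mice 7 and 8, 1 endothelial marker was called higher under the HFD. DESeq2 called 1 macrophage marker under the HFD and limma-voom none of the 3 lists. Between the diets, the hepatocyte markers Cps1 (0.79 and 0.70) and, in the Fc mice, Hnf4a (0.61) were higher under the standard diet, 2 of 8 in the Fc mice and 1 in the Fc(mML1)B3 mice, where 23.3% and 20.7% of all genes were higher. Of the other lists, read beside 24.6% of all genes lower in the Fc mice and 17.9% in the Fc(mML1)B3 mice, 4 of 6 stellate cell markers were lower under the standard diet in the Fc mice and 3 in the Fc(mML1)B3 mice, 2 of 5 cholangiocyte markers in each, 2 and 1 of 6 macrophage markers, 4 and 1 of 5 lymphocyte markers (with Cd79a higher in the latter), 1 of 3 neutrophil and 1 of 2 enterocyte markers in each, while Kdr, an endothelial gene, was higher in both. The part of these cells in the differences of the members was not tested.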

How the data were processed

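Total liver RNA of 36 mice, 1 library a mouse, was sequenced from a directional kit. According to the submitters' processing notes and the study's methods, the authors trimmed reads with fastp, took out ribosomal RNA reads with Bowtie2 2.4.5, used STAR 2.7.10a to align what remained (build mm10), and counted reads per gene with featureCounts of Subread 2.0.3. The deposited values are these raw counts, without normalization. Whether counting used strand is not given in the sources used here. In each library 65.26% to 72.64% of low counts were even, as when both reads of a pair are counted. Totals were 14949035 to 28466853 counts, which limits genes such as Cyp2b10 to a few reads. No libraries of a group agreed within sampling noise (147 pairs, lowest chi-square per degree of freedom 6.305).

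Counts were normalized by TMM and tested with edgeR 4.0.16 (quasi-likelihood, genes kept by filterByExpr) in R 4.3.3, separately for each diet for the protein effect and over all 36 mice for the interaction and the diet differences. Log2 CPM used a prior count of 2. Adjustment was Benjamini-Hochberg over all genes tested, with a threshold of 0.05. The study's methods used DESeq2, here an alternative (1.42.0) together with limma-voom (limma 3.58.1), other scalings, another filter, read pairs, a replicate block, subsets of mice and the omission of each mouse in turn. Single values had exact permutation tests (11440 groupings) or 100000 resamples, two-sided. Python 3.11.15, NumPy 2.4.6, pandas 2.3.3, SciPy 1.17.1 and statsmodels 0.14.6 were used for the rest. The tests were checked on simulated data.

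Genes named are the 10 members, Arntl, Dbp and Nr1d1, in each list the 3 tested genes with the smallest p in each comparison described, and for each member the 3 genes with the highest Spearman correlation over the 36 mice. Other genes called in a list are named by call, and were chosen after their values were seen. The members and lists were chosen with earlier results of these data known. Some genes stand in more than 1 list. Values of some genes that this rule names are not reported here. Lists covered other induced genes, other Cyp2a, Cyp2b, Cyp2c and Cyp3a genes, electron donors and haem, receptor partners, relatives of members, sex-biased, pericentral, periportal, clock and acute phase genes, and markers of 8 cell types.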

Additional observations from a re-analysis of the deposited data

Results flagged for a closer look

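Among 40 combinations of a gene and a group, 5 held a mouse whose gap to its nearest neighbour, as a share of the range of its group on the log2 CPM scale, was above Dixon's critical value (shares of 0.475 to 0.642). Chance alone gives this in about 1 in 20. On this scale Cyp2b10 in Fc(mML1)B3 mouse 5 of the standard diet, at 14.9 CPM, was not among them. Nr1i2 was highest in Fc mouse 10 of the HFD, at 116.8 CPM. Nr1i3 was highest in Fc(mML1)B3 mouse 4 of the HFD, at 144.2 CPM. Cyp3a11 was lowest in Fc(mML1)B3 mouse 2 of the HFD, at 851.4 CPM. Gadd45b was lowest in Fc mouse 4 of the standard diet, at 2.09 CPM, and in Fc(mML1)B3 mouse 1 of the standard diet, at 1.12 CPM. The difference in Por between Fc(mML1)B3 and Fc mice was not the same in the experiments, by 1.34 on the log2 scale in the test of the interaction (adjusted p = 3.2e-05). The value was 1.24 (adjusted p = 0.00013) without Fc mice 7 and 8 of the HFD. Under the HFD, numbering series and protein cannot be told apart.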

How the results depend on the processing

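Over the alternatives other than leaving out single mice, 420 values of single members were recomputed, of which 386 kept their direction and their side of the threshold, 5 lost a call, 13 gained one and 16 changed sign. Under the HFD the count of called members, 0 with edgeR, was 1 in the fit over all 36 libraries, 1 with Fc(mML1)B3 mice 1 to 4 and 1 with mice 5 to 10, and 0 to 1 when each mouse was left out. Under the standard diet the count of 3 was 5 with DESeq2, 4 with limma-voom, 2 with read pairs, 2 against Fc mice 6 to 9, and 2 to 5 when each mouse was left out. Without Fc mouse 8 it was 5, with Nr1i2 and Ces2a added. The interaction count of 1 was 2 without Fc mice 7 and 8 of the HFD or without mouse 7, and 1 to 2 over all omissions. The counts between the diets were 8 to 9 in the Fc mice and 5 to 7 in the Fc(mML1)B3 mice when each mouse was left out.

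Changes of sign concerned differences that were not called. Under the HFD, Cyp2b9 became -0.01 with upper-quartile scaling and -0.07 with library totals (-0.23 to 0.40 when each mouse was left out), and with Fc(mML1)B3 mice 1 to 4 Cyp3a11 became -0.08 and Por 0.23. Under the standard diet, Cyp3a11 became -0.03 against Fc mice 6 to 9 and Abcc3 -0.01 with library totals (-0.02 to 0.06 by omission), while Cyp2b9 ran from -0.25 to 0.99. For the interaction, limma-voom gave 0.02 for Nr1i2, -0.38 for Cyp2b10 and 0.02 for Gadd45b, library totals gave 0.02 for Nr1i2 and 0.01 for Ces2a, and the fit without Fc mice 7 and 8 gave -0.06 for Cyp2b10 and 0.10 for Ces2a. By omission the interaction ran from -0.12 to 0.02 for Nr1i2, -0.27 to 0.98 for Cyp2b9, -0.76 to 1.43 for Cyp2b10, -0.12 to 0.03 for Ces2a and -0.22 to 0.12 for Gadd45b. Between the diets, Nr1i2 ran from -0.11 to 0.01 in the Fc mice and Nr1i3 became -0.01 with upper-quartile scaling in the Fc(mML1)B3 mice. The cause was not tested.

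With the replicate block, the standard diet count was 4, with Nr1i2 (0.28, adjusted p = 0.0128) and Ces2a (0.28, adjusted p = 0.0378) added and Cyp2b10 lost (1.65, adjusted p = 0.31), and the interaction became -0.03 for Cyp2b9 and -0.08 for Cyp2b10. Between the diets the block ended the calls of Nr1i3 in the Fc mice (-0.33, adjusted p = 0.0637) and of Cyp2b13 in the Fc(mML1)B3 mice (-1.30, adjusted p = 0.0799), and added Cyp2b9 in the latter (-1.59, adjusted p = 0.0388). Same-numbered mice shared only a number, with correlations of their deviations of -0.62 to 0.259 under the HFD and -0.156 to 0.001 under the standard diet. Leaving out single mice ended the call of Nr1i3 in the Fc mice in 6 of 36 fits (Fc mice 1, 3, 4, 5 and 6 of the HFD and 1 of the standard diet) and that of Cyp2b13 in the Fc(mML1)B3 mice in 10 of 36 (HFD mice 3, 5, 6, 8 and 9 and standard diet mice 1 to 5). Limma-voom added Por (0.41, adjusted p = 0.0235) and Cyp2b9 (-1.72, adjusted p = 0.00424) between the diets in the Fc(mML1)B3 mice. The median over all genes was -0.13 in the Fc mice with either other scaling, against -0.05 with TMM. Depth limits Cyp2b10 and Cyp2b13, and protein, diet, schedule and numbering series are not separable further than stated.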
